A study of Mus musculus with 12 samples.

Results

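The CXC chemokines that call neutrophils through CXCR2, their receptors and the CXCL12-CXCR4 pair were followed in peritoneal lavage cells of mice given LPS. The 10 genes were taken by symbol: the ligands Cxcl1, Cxcl2, Cxcl3, Cxcl5 and Ppbp, the platelet chemokine Pf4, the receptors Cxcr1 and Cxcr2, and Cxcl12 with its receptor Cxcr4. All were present once among the 21878 genes of each table. The 12 libraries came from C57BL/6J mice and formed 4 groups of 3: wild type with PBS, wild type with LPS, lactoferrin knockout with PBS and lactoferrin knockout with LPS, each injected into the peritoneal cavity. The question behind the design is what lactoferrin, an iron-binding neutrophil granule protein encoded by Ltf, contributes to the transcript response to LPS. The LPS dose, the time of lavage, the age of the mice and how the allele was made: none was given in the sources used here.

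CXCR2 is a G protein-coupled receptor of neutrophils that binds CXC chemokines carrying a glutamate-leucine-arginine motif, and its engagement draws neutrophils from blood into inflamed tissue. In the peritoneum, resident macrophages and mast cells are known sources of these ligands after LPS. CXCR4 and its ligand CXCL12 act the other way on neutrophils, holding them in the bone marrow, and CXCR4 also sits on many other leukocytes. Pf4 lacks the motif and is stored in platelet granules together with the Ppbp product.

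The tables were taken to hold FPKM, a level scaled by transcript length and library size, with totals of 343874 to 388129 per library. The depth in reads is unknown, so no counting interval can be given. Wild-type PBS replicate 3 was the least like its group, with Spearman rho of 0.949 and 0.934 across genes against its group mates. Wild-type LPS replicate 2 and knockout LPS replicate 1 held the most erythroid RNA, with summed markers of 2225 and 1886 FPKM against 4.46 to 330 FPKM in the other libraries. Ltf was lower in the knockout, at 0.218 ± 0.0376 FPKM against 1.43 ± 0.402 FPKM under PBS, and at 0.0899 ± 0.0240 FPKM against 0.593 ± 0.639 FPKM under LPS (SD, n = 3). The lavage was not sorted according to the labels, neutrophil, macrophage and lymphocyte markers were all present, and in such bulk RNA fewer cells of a type and less RNA per cell cannot be told apart. The titles give each library a numbered code for its mice, and the same codes recur under PBS and LPS. They do not say whether a code stands for a mouse of its own. The tests thus measure spread among libraries, which may be technical.

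Of the 10 genes, 6 lie together on chromosome 5 of GRCm38, all on the plus strand, within 146.6 kb. Their order is Cxcl5 (chr5:90759360-90761624), Ppbp (chr5:90768518-90770063), Pf4 (chr5:90772435-90773383), Cxcl3 (chr5:90786103-90789600), Cxcl1 (chr5:90891241-90893115) and Cxcl2 (chr5:90903871-90905938). The 3 ligands with the highest LPS levels, Cxcl1, Cxcl2 and Cxcl3, are shown with their neighbour Pf4, whose level moved less. Each sequence runs 5′ to 3′ from 120 to 31 bases before the RefSeq start (build GRCm38.p6, plus strand). Capitals mark a match to a strict form of the NF-kB binding motif, 10 letters with any base at the fifth, searched on both strands.
Cxcl1, chr5:90891125-90891214: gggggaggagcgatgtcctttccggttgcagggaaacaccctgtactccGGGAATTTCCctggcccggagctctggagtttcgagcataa
Cxcl2, chr5:90903779-90903868: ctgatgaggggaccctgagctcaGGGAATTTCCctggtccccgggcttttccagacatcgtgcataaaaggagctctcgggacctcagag
Cxcl3, chr5:90785981-90786070: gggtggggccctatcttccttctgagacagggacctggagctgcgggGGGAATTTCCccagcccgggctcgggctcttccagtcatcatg
Pf4, chr5:90772315-90772404: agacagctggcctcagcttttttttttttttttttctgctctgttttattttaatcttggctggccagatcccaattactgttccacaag
The match was the same 10 letters in all 3 ligand promoters and began 67, 69 and 75 bases before the GENCODE start of Cxcl1, Cxcl2 and Cxcl3. The run shared by the 3 windows at this place was GGGAATTTCCC. Of the 9 genes with a RefSeq promoter window of 300 bases (250 before the start and 50 after), all but Cxcl5, these 3 held a match, against 0.411% of the 32851 windows in the table. A looser NF-kB form, with any base at the fourth letter too, which includes the first, was also found in these 3 of the 9 genes and in 1.63% of all windows. Among the other 6 motifs searched, AP-1 (TGANTCA) occurred in Ppbp and C/EBP (TTGCNNAA) in Pf4, in 7.81% and 10.8% of all windows. CREB (TGACGT) occurred in Cxcl1 (7.51% of all windows), the TATA box (TATAAA) in Cxcl3, Ppbp and Cxcr4 (13.6%), PU.1 (GGAAGT) in Ppbp, Pf4 and Cxcr2 (23.8%) and the longer ETS form (GAGGAAGT), which contains the PU.1 letters, in Pf4 (3.20%). These matches describe the letters and do not show binding.

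LPS raised the transcripts of the main CXCR2 ligands in both genotypes. Cxcl1, the ligand also known as KC, was at 86.9, 45.1 and 25.7 FPKM in the wild-type PBS libraries and at 615, 1104 and 537 FPKM in the wild-type LPS libraries. In the knockout it was at 51.8, 66.0 and 22.9 FPKM under PBS and at 628, 905 and 923 FPKM under LPS. Every LPS library was thus above every PBS library, and the genotypes overlapped under each treatment. The rise was 3.91 ± 0.46 in wild type and 4.20 ± 0.46 in the knockout in log2(FPKM + 1) units (SE, limma adjusted p = 3.57e-05 and adjusted p = 3.07e-05), a scale that understates the change of low genes.

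Cxcl2, also called MIP-2, was already the most abundant of the 5 CXCR2 ligands without LPS, in every PBS library. It was at 266, 196 and 134 FPKM in wild type under PBS and at 902, 1068 and 608 FPKM under LPS. The knockout libraries were at 153, 145 and 86.9 FPKM under PBS and at 964, 972 and 1448 FPKM under LPS. Here too the PBS and LPS libraries did not overlap in either genotype. The rise of Cxcl2 was 2.12 ± 0.31 in wild type and 3.14 ± 0.31 in the knockout (SE, limma adjusted p = 0.000130 and adjusted p = 1.43e-05).

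Cxcl3 was the 1 ligand for which no pair of the 4 groups overlapped. It was at 92.6, 116 and 52.3 FPKM in wild type under PBS and at 26.5, 44.8 and 13.1 FPKM in the knockout under PBS. Under LPS the wild-type libraries were at 356, 387 and 301 FPKM and the knockout libraries at 631, 409 and 600.1 FPKM. The order was knockout LPS, wild-type LPS, wild-type PBS and knockout PBS. LPS raised Cxcl3 by 2.05 ± 0.39 in wild type and by 4.37 ± 0.39 in the knockout (SE, limma adjusted p = 0.000806 and adjusted p = 8.06e-06).

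Cxcl5, a ligand better known from epithelial cells, was low. Its PBS libraries were at 0.231, 0.288 and 0.188 FPKM in wild type and at 0.0913, 0.190 and 0.0487 FPKM in the knockout. Under LPS it was at 4.29, 2.32 and 5.09 FPKM in wild type and at 14.8, 4.11 and 3.87 FPKM in the knockout, where replicate 1, a library rich in erythroid RNA, was the highest of all 12. The differences were 1.94 ± 0.37 and 2.72 ± 0.37 (SE, limma adjusted p = 0.000928 and adjusted p = 0.000144). Cxcl5 passed the minimum of 1 FPKM, the mean over all libraries required for testing, only through its LPS libraries, so its call is no independent support.

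**Figure D1:**
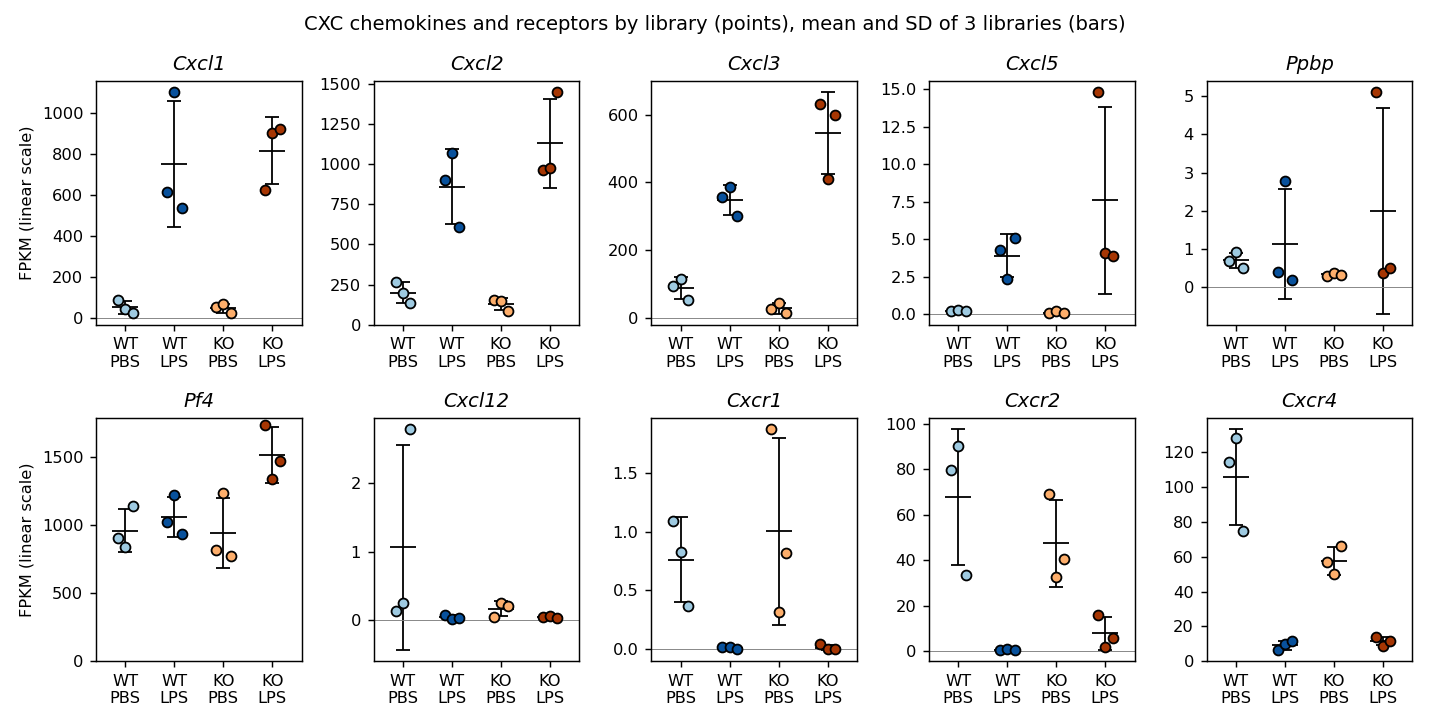
FPKM of each of the 10 genes (1 panel each, linear axis of its own) in the 12 libraries, with points for libraries and bars for the mean and SD of the 3 libraries of a group. Cxcl1, Cxcl2, Cxcl3 and Cxcl5 are higher in every LPS library than in every PBS library of the same genotype, and Cxcr1, Cxcr2 and Cxcr4 are lower.

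The summed level of Cxcl1, Cxcl2, Cxcl3, Cxcl5 and Ppbp was 213 to 447 FPKM in wild type and 123 to 256 FPKM in the knockout under PBS, and 1451 to 2565 FPKM and 2243 to 2975 FPKM under LPS. Its make-up shifted with LPS from Cxcl2 towards Cxcl1. Cxcl2 held 54.7% to 63.0% of the sum in wild type under PBS and 41.6% to 48.0% under LPS, and in the knockout 56.5% to 70.5% and 42.4% to 48.7%. The share of Cxcl1 went from 12.1% to 19.5% up to 32.7% to 43.1% in wild type and from 18.6% to 25.8% up to 28.0% to 39.5% in the knockout. The share of Cxcl3 did not move the same way in the genotypes: the highest wild-type LPS library (20.722%) lay just under the lowest wild-type PBS library (20.732%), while the knockout went from 10.6% to 17.5% under PBS to 17.9% to 28.1% under LPS. Cxcl5 and Ppbp together stayed under 1% in every library, with highest shares of 0.660% and 0.274%. FPKM is scaled by length, so these shares compare transcripts of different genes, but they are shares of a sum and were not tested.

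**Figure D2:**
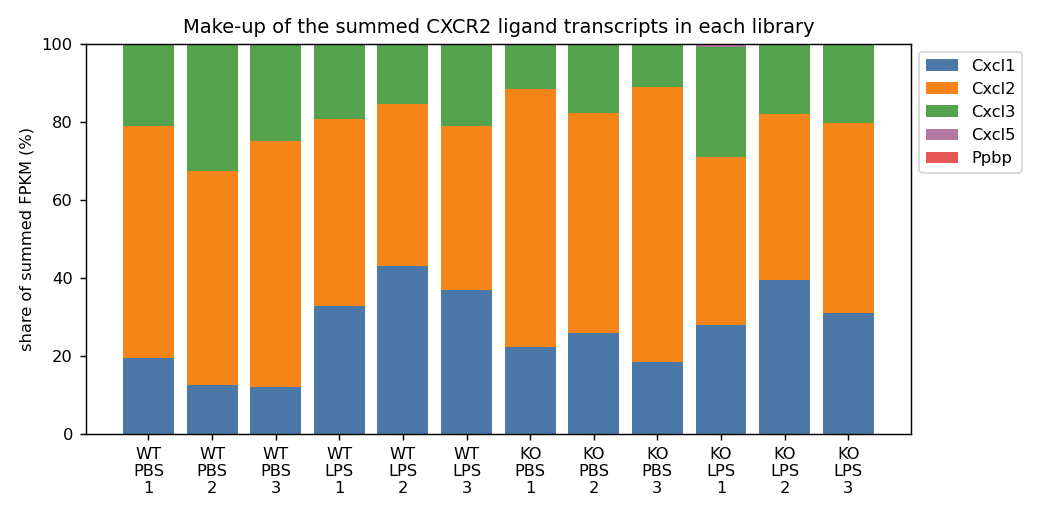
Share of each of 5 CXCR2 ligands in their summed FPKM (vertical axis, percent) in each of the 12 libraries (horizontal axis). The Cxcl2 share is 54.7% or more in every PBS library and at most 48.7% in every LPS library, and the Cxcl1 share is higher under LPS within each genotype.

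The receptors moved against the ligands. Cxcr2, the signalling receptor for these ligands on neutrophils, was at 79.5, 90.1 and 33.7 FPKM in wild type under PBS and at 0.494, 1.04 and 0.851 FPKM under LPS. In the knockout it was at 69.2, 32.7 and 40.5 FPKM under PBS and at 16.1, 1.87 and 5.97 FPKM under LPS. Every LPS library lay below every PBS library, and every wild-type LPS library lay below every knockout LPS library. The change was -5.15 ± 0.55 in wild type and -2.72 ± 0.55 in the knockout (SE, limma adjusted p = 1.99e-05 and adjusted p = 0.00176).

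The neutrophil markers stood as follows beside Cxcr2. The summed level of 11 neutrophil markers was 1961 to 3253 FPKM in wild type under PBS and 161 to 288 FPKM under LPS, and 8 of the 10 tested markers were lower, where 37.4% of all tested genes were lower. Ly6g, 1 of the 8, passed the minimum for testing only through its PBS libraries, so its call is no independent support. Its mean under LPS was 0.116 FPKM in wild type and 1.21 FPKM in the knockout. In the knockout the sum was 1201 to 3026 FPKM under PBS and 728 to 2703 FPKM under LPS, ranges that overlap, and 1 marker (Mmp9) was lower and 1 (Ngp, a granule protein made in neutrophil precursors) was higher, where 33.3% and 19.9% of all tested genes were. S100a8, a calprotectin subunit very abundant in neutrophils, differed by 0.02 ± 0.51 between LPS and PBS in the knockout (SE, limma adjusted p = 0.972). This gene and S100a9, another of the markers, made up most of the marker sum in every library. Set against S100a8, Cxcr2 was at 3.72 to 7.35 FPKM per 100 FPKM of S100a8 in wild type under PBS and at 0.736 to 1.01 under LPS. In the knockout the same ratio was 5.35 to 7.80 under PBS and 0.585 to 1.30 under LPS. The ratio was thus lower in every LPS library than in every PBS library, and its ranges in the genotypes overlapped under each treatment. Set against Csf3r, the G-CSF receptor and another of these markers, the picture between the genotypes was not the same. Csf3r itself moved less than S100a8 with LPS in wild type. The changes were -0.63 ± 0.26 for Csf3r, not called, and -3.78 ± 0.51 for S100a8 (SE, limma adjusted p = 0.0522 and adjusted p = 8.76e-05). In the knockout Csf3r changed by -0.30 ± 0.26 (SE, limma adjusted p = 0.350). Cxcr2 was at 0.693 to 1.04 FPKM per FPKM of Csf3r in wild type and at 0.485 to 0.691 in the knockout under PBS. Under LPS this ratio was 0.00946 to 0.0219 in wild type and 0.0387 to 0.254 in the knockout, so it did not overlap between the genotypes under either treatment, with the knockout below under PBS and above under LPS. Both ratios were formed after the values had been seen and were not tested, and either marker can itself change within a cell.

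**Figure D3:**
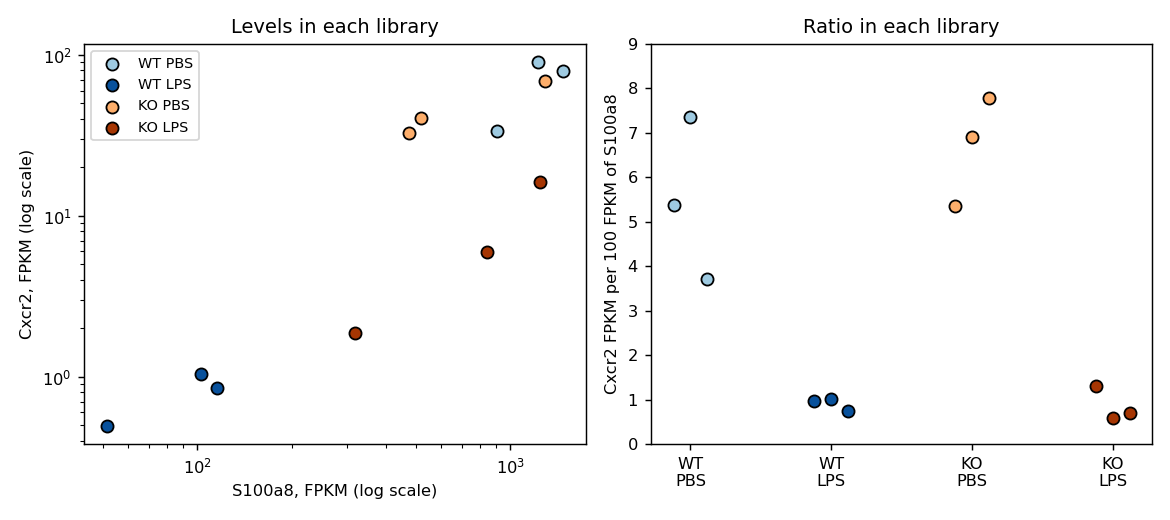
Left, Cxcr2 against S100a8 in each of the 12 libraries, in FPKM on log axes. Right, FPKM of Cxcr2 per 100 FPKM of S100a8 by group on a linear axis, with 1 point per library: 3.72 to 7.80 in the PBS libraries and 0.585 to 1.30 in the LPS libraries.

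Cxcr1, the close relative of Cxcr2, was near the lower end of detection and its mean lay under the minimum for testing. It was at 1.09, 0.830 and 0.372 FPKM in wild type under PBS and at 1.88, 0.314 and 0.822 FPKM in the knockout. Under LPS it was at 0.0203, 0.0209 and 0 FPKM in wild type and at 0.0405, 0 and 0 FPKM in the knockout. All LPS libraries were below all PBS libraries, and on that log2 scale LPS less PBS was -0.84 over both genotypes (exact permutation within genotype, two-sided, p = 0.005, the smallest that 400 relabellings can give, adjusted p = 0.02 over 4 tests). Its difference between knockout and wild type over both treatments was 0.07 (exact permutation, p = 0.895, adjusted p = 0.895). Without the erythroid-rich libraries the LPS difference had an adjusted p of 0.08 by exact permutation, in a smaller set of relabellings. Under PBS, Cxcr1 was at 0.922% to 2.71% of the FPKM of Cxcr2.

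Cxcr4, the receptor of CXCL12, was more abundant than Cxcr2 in all libraries but replicate 1 of the knockout PBS and of the knockout LPS group. It was at 114, 128 and 74.8 FPKM in wild type under PBS and at 6.41, 9.78 and 11.7 FPKM under LPS. The knockout was at 56.9, 49.8 and 65.8 FPKM under PBS and at 14.2, 9.07 and 11.8 FPKM under LPS. The treatments did not overlap, the genotypes overlapped under LPS, and every knockout PBS library was below every wild-type PBS library. The change was -3.37 ± 0.24 in wild type and -2.22 ± 0.24 in the knockout (SE, limma adjusted p = 1.53e-06 and adjusted p = 2.83e-05). Cxcr4 stood at 9.45 to 13.7 times the level of Cxcr2 in wild type under LPS, against 1.42 to 2.22 times under PBS. In the knockout this ratio was 0.823 to 1.63 under PBS and 0.879 to 4.85 under LPS. The wild-type LPS ratio divides by a low level of Cxcr2, 0.494 to 1.04 FPKM. These ratios were not tested.

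Cxcr4 is found on many leukocytes, and markers of several of them were also lower with LPS. Of 5 B cell markers 4 fell in each genotype, of 4 T cell markers 4 fell in wild type and 1 in the knockout, and of 4 monocyte markers 4 and 3 fell, where 37.4% of all tested genes fell in wild type and 33.3% in the knockout. The T cell marker Cd3d passed the minimum for testing only through its PBS libraries, so its call in wild type is no independent support. Its mean under LPS was 0.869 FPKM in wild type and 0.775 FPKM in the knockout. Of 6 large peritoneal macrophage markers 3 fell and 1 rose in wild type, and 5 fell and 1 rose in the knockout. Of 6 tested mast cell markers none fell in either genotype, and 2 rose in wild type only. Among all tested genes 24.8% rose in wild type and 19.9% in the knockout. The part of these cells in the fall of Cxcr4 was not tested.

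Cxcl12 transcripts were nearly absent, with 11 of the libraries between 0.0147 and 0.253 FPKM. The exception was wild-type PBS replicate 3 at 2.80 FPKM, where the other wild-type PBS libraries were at 0.136 and 0.253 FPKM. In that library the 11 mesothelial and stromal markers summed to 8.01 FPKM, the lowest of its group (8.01 to 10.9 FPKM). Single markers went both ways there: Krt8 (2.71 FPKM) and Upk3b (0.276 FPKM) were the highest of the group, and the collagen genes Col1a1 (1.998 FPKM) and Col1a2 (1.88 FPKM) the lowest. Their part in the Cxcl12 value was not tested. The LPS difference over both genotypes was -0.45 (exact permutation within genotype, two-sided, p = 0.015, adjusted p = 0.03 over 4 tests). It was -0.18 without wild-type PBS replicate 3, and the call was lost without any 1 of the wild-type LPS libraries or without knockout LPS replicate 3 (exact permutation, adjusted p = 0.05 to adjusted p = 0.37). The knockout differed from wild type by -0.30 (exact permutation, p = 0.405, adjusted p = 0.54).

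Pf4 was abundant in every library, from 774 to 1736 FPKM. It was at 904, 839 and 1138 FPKM in wild type under PBS and at 1023, 1219 and 933 FPKM under LPS, groups that overlap. In the knockout it was at 819, 1234 and 774 FPKM under PBS and at 1736, 1338 and 1468 FPKM under LPS, groups that do not. Pf4 rose by 0.71 ± 0.20 with LPS in the knockout (SE, limma adjusted p = 0.0115), while in wild type the difference was 0.14 ± 0.20 (adjusted p = 0.554). The call in the knockout was lost without knockout PBS replicate 3 (0.58, limma adjusted p = 0.0541) and without the erythroid-rich libraries (0.60, adjusted p = 0.0574). The 10 platelet markers, among them the glycoprotein genes Gp1ba, Gp5 and Gp9, summed to 0.832 to 3.38 FPKM in a library. Which cells held the Pf4 transcripts was not tested.

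Ppbp, which encodes the platelet basic protein and its CXCR2-binding product NAP-2, was low in most libraries. It was at 0.690, 0.920 and 0.519 FPKM in wild type under PBS and at 0.401, 2.79 and 0.199 FPKM under LPS. The knockout was at 0.313, 0.389 and 0.337 FPKM under PBS and at 5.11, 0.392 and 0.514 FPKM under LPS. The 2 high values belong to wild-type LPS replicate 2 and knockout LPS replicate 1, the libraries with the most erythroid RNA and the highest summed platelet markers (2.60 and 3.38 FPKM), and without them Ppbp fell under the minimum for testing. The next highest platelet sum was 2.44 FPKM in wild-type PBS replicate 3, where Ppbp was at 0.519 FPKM. Of the 10 platelet markers, 7 were highest in 1 of those 2 libraries, with Gp9 at 0 in all others, while Clec1b was highest in wild-type PBS replicate 3 (1.26 FPKM), Gp6 in wild-type LPS replicate 3 (0.341 FPKM) and Gp1ba in knockout PBS replicate 2 (0.358 FPKM). The part of blood cells in the Ppbp values was not tested. The LPS differences were 0.12 ± 0.52 in wild type and 0.80 ± 0.52 in the knockout, with 95% intervals of -1.02 to 1.27 and -0.35 to 1.94, and were not called (SE, limma adjusted p = 0.853 and adjusted p = 0.217). In the knockout every LPS value was above every PBS value, by a margin as small as 0.392 against 0.389 FPKM.

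**Figure D4:**
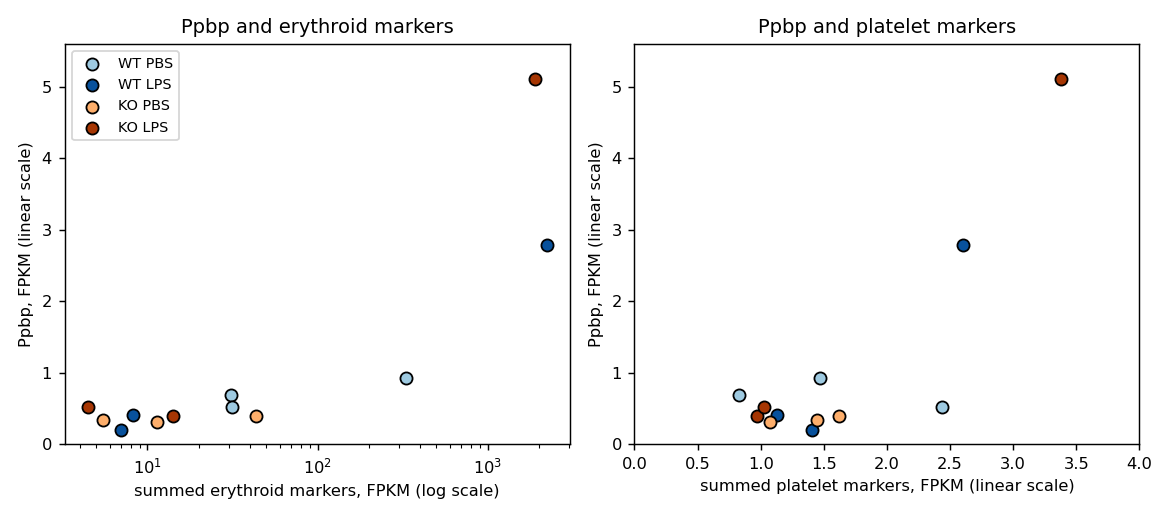
FPKM of Ppbp (vertical axes, linear) against the summed FPKM of erythroid markers (left, log axis) and of platelet markers (right, linear axis) in the 12 libraries. The 2 libraries with Ppbp above 1 FPKM, at 2.79 and 5.11 FPKM, have the highest sums of both kinds.

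With LPS in wild type, 4 of the 8 tested genes thus rose (Cxcl1, Cxcl2, Cxcl3, Cxcl5) and 2 fell (Cxcr2, Cxcr4), where 24.8% of the 9841 tested genes rose and 37.4% fell. In the knockout 5 rose, with Pf4 added, and 2 fell, where 19.9% of all genes rose and 33.3% fell. The groups did not overlap for 4 members above and 2 below in wild type, against 27.2% and 38.9% of all genes, and for 6 above and 2 below in the knockout, against 24.6% and 41.3%. Cxcl5 was tested only through its LPS libraries and Ppbp only through 2 of them, so these counts and the medians of the tested members are descriptions and support nothing. The median difference of the 8 tested members was 1.04 in wild type and 1.76 in the knockout, against -0.11 and -0.12 over all tested genes. Scaling by median of ratios moved the median of all genes in wild type to 0.05 and the calls from 2443 higher and 3680 lower to 3327 higher and 2851 lower, and in the knockout to 0.04 and from 1958 higher and 3277 lower to 2934 higher and 2397 lower. The member counts stayed at 4 and 2 in wild type and at 5 and 2 in the knockout.

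**Figure D5:**
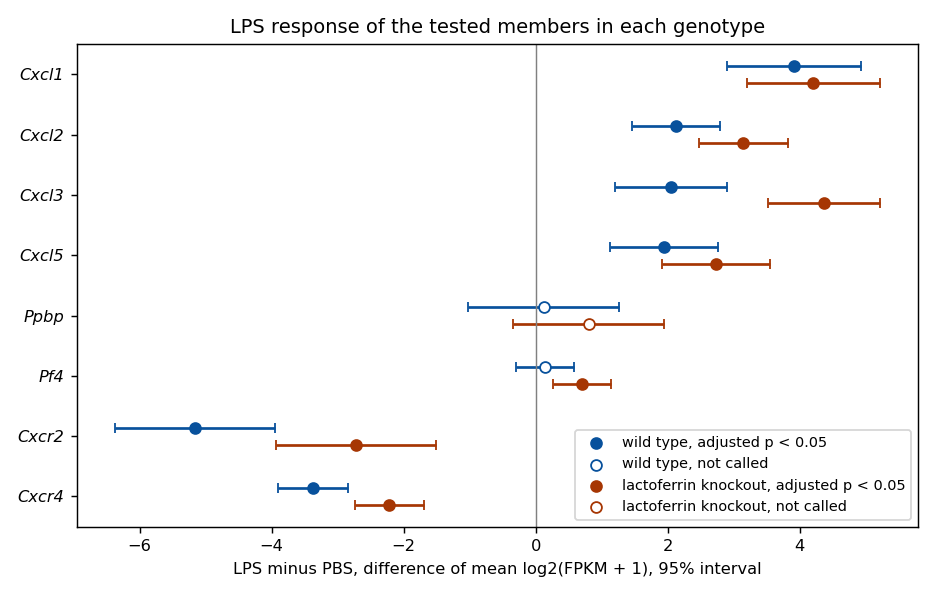
LPS minus PBS difference of the 8 tested genes on the log2(FPKM + 1) scale (horizontal axis) with 95% intervals from limma, for wild type (blue) and lactoferrin knockout (brown). Filled points passed an adjusted p of 0.05. The ligands Cxcl1, Cxcl2, Cxcl3 and Cxcl5 lie to the right of 0 and the receptors Cxcr2 and Cxcr4 to the left in both genotypes.

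Without LPS, none of the 8 tested genes differed between knockout and wild type by limma after adjustment, and 2 (Cxcl3 and Cxcr4) had an unadjusted p under 0.05. Of all genes 0.112% were called and 9.11% had an unadjusted p under 0.05. Cxcl3 differed by -1.68 ± 0.39 (SE, limma adjusted p = 0.188), with a 95% interval of -2.53 to -0.83. Cxcr4 differed by -0.84 ± 0.24 (SE, limma adjusted p = 0.336). The 4 T cell markers summed here to 10.2 to 14.9 FPKM in the knockout and 23.2 to 33.5 FPKM in wild type, and none was called. The B cell sums overlapped, at 631 to 868 FPKM in the knockout and 500 to 1074 FPKM in wild type. Those of the monocyte and neutrophil markers overlapped too. The part of any of these cells in the Cxcr4 difference was not tested. The groups did not overlap for Cxcl3, Cxcr4 and Ppbp, all lower in the knockout, as for 7.34% of all tested genes. Cxcl2 differed by -0.62 ± 0.31, Cxcr2 by -0.46 ± 0.55 and Cxcl1 by -0.12 ± 0.46 (SE, limma adjusted p = 0.560, adjusted p = 0.806 and adjusted p = 0.950). Leaving out 1 library, the Cxcl2 difference ranged from -0.87 to -0.36 and that of Cxcr2 from -0.89 to -0.20. For Cxcl5 and Pf4 the differences were -0.16 ± 0.37 and -0.05 ± 0.20.

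Under LPS, again none of the 8 was called by limma, and 2 (Cxcr2 and Pf4) had an unadjusted p under 0.05. No gene of the 9841 was called (0%), and 7.56% had an unadjusted p under 0.05. Cxcr2 differed by 1.98 ± 0.55 (SE, limma adjusted p = 0.455), with a 95% interval of 0.76 to 3.19. The 11 neutrophil markers summed to 728 to 2703 FPKM in the knockout and 161 to 288 FPKM in wild type. S100a8 and S100a9 made up most of these sums. None of the 10 tested markers was called between the genotypes, and their part in the Cxcr2 difference was not tested. Between the genotypes the Cxcr2 to S100a8 ratio overlapped under LPS and the Cxcr2 to Csf3r ratio did not. Pf4 differed by 0.52 ± 0.20 and Cxcl3 by 0.63 ± 0.39 (SE, limma adjusted p = 0.644 and adjusted p = 0.719). For Cxcr2, Pf4 and Cxcl3 every knockout library was above every wild-type library, as for 5.03% of all tested genes. Cxcl1 (0.17 ± 0.46), Cxcl2 (0.40 ± 0.31), Cxcl5 (0.63 ± 0.37), Ppbp (0.34 ± 0.52) and Cxcr4 (0.32 ± 0.24) overlapped between the genotypes. The interval of the Cxcl1 difference, -0.83 to 1.18, leaves room for a change in either direction.

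The difference in the LPS response between the genotypes was tested as an interaction. None of the 8 genes was called by limma, 4 had an unadjusted p under 0.05, and of all genes 0.0406% were called and 9.61% had an unadjusted p under 0.05. The knockout response less the wild-type response was 2.31 ± 0.55 for Cxcl3 and 1.02 ± 0.43 for Cxcl2 (SE, limma adjusted p = 0.205 and adjusted p = 0.494). It was 2.43 ± 0.78 for Cxcr2 and 1.16 ± 0.34 for Cxcr4, the falling receptors (SE, limma adjusted p = 0.393 and adjusted p = 0.339). For Cxcl1 the difference was 0.29 ± 0.65 (adjusted p = 0.903). For these 5 genes the knockout is thus not shown to respond differently from wild type. These interaction values use the same libraries as the comparisons within a treatment and are not separate evidence.

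Genes that act before and after these receptors were described from lists, whose counts stand against 24.8% of all tested genes that rose and 37.4% that fell in wild type, and 19.9% and 33.3% in the knockout. Of 30 genes of CXCR2 and CXCR4 signal transduction, 23 fell and 2 rose with LPS in wild type and 20 fell and 2 rose in the knockout, with medians of -0.70 and -0.64 against -0.11 and -0.12 over all genes. Arrb1 and Arrb2, the beta-arrestins that uncouple and internalise chemokine receptors, changed by -2.80 ± 0.33 and -2.07 ± 0.25 in wild type. Lasp1, a cytoskeletal partner of CXCR2, changed by -2.50 ± 0.24 and Mapk3, which encodes the kinase ERK1, by -2.06 ± 0.19 (SE, limma adjusted p = 9.37e-06 and adjusted p = 8.96e-06). In the knockout Grk6, a receptor kinase that phosphorylates chemokine receptors, changed by -2.18 ± 0.19 (SE, limma adjusted p = 6.62e-06). The 2 that rose were Elmo1 and Pik3cg in wild type, and Pik3cg and Pik3r5, subunits of the leukocyte PI3 kinase gamma, in the knockout.

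Among 21 tested inducers and transcript regulators of the ligands, 10 rose and 6 fell in wild type (24.8% and 37.4% of all genes) and 11 rose and 4 fell in the knockout (19.9% and 33.3%). Il1a, an alarm cytokine, rose from 14.7 ± 6.82 to 151 ± 33.3 FPKM in wild type and from 10.98 ± 3.69 to 163 ± 41.1 FPKM in the knockout (SD, n = 3). Nfkbiz, an NF-kB cofactor needed for a set of inflammatory genes, rose from 16.0 ± 5.69 to 74.7 ± 4.06 FPKM and from 23.2 ± 3.81 to 85.7 ± 13.5 FPKM (SD, n = 3). Il1b changed by -0.84 ± 0.32 in wild type and by 1.40 ± 0.32 in the knockout, an interaction of 2.24 ± 0.45 that was not called (SE, limma adjusted p = 0.0369, adjusted p = 0.00326 and adjusted p = 0.124). Zc3h12a, a ribonuclease that degrades cytokine transcripts, rose by 1.95 ± 0.15 in each genotype. Il17a, a T cell cytokine that induces CXC chemokines, rose by 2.60 ± 0.40 in wild type and by 2.19 ± 0.40 in the knockout (SE, limma adjusted p = 0.000210 and adjusted p = 0.000935), but passed the minimum for testing only through its LPS libraries.

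Of 6 receptors for other neutrophil attractants, the formyl peptide receptors Fpr1 and Fpr2 rose in both genotypes, by 1.52 ± 0.31 and 1.27 ± 0.33 in wild type and by 1.69 ± 0.31 and 1.24 ± 0.33 in the knockout (SE, limma). The leukotriene B4 receptor Ltb4r1 changed by -2.80 ± 0.38 and -2.38 ± 0.38 and Ccr1 by -2.98 ± 0.29 and -2.25 ± 0.29. The other members of that list, C5ar1 and Ptafr, fell in wild type and were not called in the knockout. Of 7 tested chemokine scavengers and processing proteases 1 rose and 3 fell in wild type, and 1 rose and 4 fell in the knockout, where 37.4% and 33.3% of all genes fell. The gene that rose in each genotype, Mmp12, passed the minimum for testing only through its LPS libraries. Ackr2, 1 of the 4 that fell in the knockout, passed it only through its PBS libraries, so these calls are no independent support. Mmp8 and Mmp9, neutrophil proteases able to trim CXC chemokines, changed by -3.85 ± 0.54 and -3.53 ± 0.32 in wild type and by -1.08 ± 0.54 and -2.42 ± 0.32 in the knockout, where Mmp8 was not called (SE, limma adjusted p = 0.113). Both are also among the neutrophil markers above, whose part here was not tested. Of 9 partners of the CXCR4 axis, other CXC receptors and release factors, 2 rose and 3 fell in each genotype, near the shares over all genes. Csf3, whose product G-CSF releases neutrophils from the marrow, rose from 0.601 ± 0.370 to 42.9 ± 9.69 FPKM in wild type and from 0.474 ± 0.412 to 53.1 ± 7.82 FPKM in the knockout (SD, n = 3), and passed the minimum for testing only through its LPS libraries. Mif, a cytokine that binds CXCR2 and CXCR4, rose by 2.001 ± 0.20 and 1.85 ± 0.20. None of the listed genes was called in a comparison between the genotypes by limma.

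The genes most like each member over the 12 libraries were found by the root mean square difference of log2(FPKM + 1), each gene centred on its own mean, among 6638 genes of at least 5 FPKM. Il1a was closest to Cxcl1, with a difference of 0.32 against a spread of 2.10 of Cxcl1 itself, followed by Slamf1 (0.56) and Ccl3 (0.59). Mmp13 (0.31), Ccl4 (0.32) and Ptgs2, which encodes cyclooxygenase 2 (0.33), were closest to Cxcl2, whose spread was 1.39. For Cxcl3, with a spread of 1.78, they were Ccl4 (0.52), Ccl3 (0.55) and Ch25h (0.56). Cxcl5 had Il10 (0.39), Sphk1 (0.50) and Slc16a1 (0.51) nearest. For Cxcr2, with a spread of 2.20, they were the C-type lectin receptor Clec7a (0.62), Asprv1 (0.63) and Clec4n (0.67), and for Cxcr4 Dusp6 (0.33), Vim (0.33) and Gm9733 (0.34). Pf4 and Ppbp had the smallest spreads on this scale, 0.35 and 0.68, although Ppbp ranged from 0.199 to 5.11 FPKM, and their nearest genes, Mrps12, Uqcc2 and Iscu for Pf4 (0.19 to 0.22) and Pgp, Ggta1 and Ubald2 for Ppbp (0.54 to 0.55), lay at a large part of those spreads. Among the members themselves Ppbp and Pf4 (0.56) and Cxcl2 and Cxcl3 (0.58) were the nearest pairs. The value for Ppbp and Pf4 was above the spread of Pf4 itself and a large part of that of Ppbp. The value for Cxcl2 and Cxcl3 was well under both of their spreads, 1.39 and 1.78. The compared genes share these libraries and their split into LPS and PBS, so the values are descriptions.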

How the data were processed

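RNA of peritoneal lavage cells was extracted with a mirVana kit and sequenced by Solexa protocols, per the labels. The authors deposited 1 table of gene symbols and values per library; the unit is not stated, and the deposited values were taken as FPKM because they are not whole and because Cufflinks is named. The submitters' processing notes name TopHat, Cufflinks, HTSeq, DESeq and GRCm38, with no version or role. Annotation, filters and strandedness: not given in the sources used here. Knockout titles mention wild type, whereas the codes and characteristics say knockout; the latter defined the groups.

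Of 21878 rows, 27 symbols turned into dates were left out. Genes averaging 1 FPKM or more across libraries (9841, 45% of those kept) were tested with limma 3.58.1 in R 4.3.3 on log2(FPKM + 1), with a mean per group, a variance trend and robust hyperparameters. Tests were two-sided, with Benjamini-Hochberg adjustment over all tested genes of a comparison, with a threshold of 0.05. Members below the filter (Cxcl12 and Cxcr1) had exact permutation tests. The scripts were tested on simulated data. Low values gave a common step for only 9.05% to 17.9% of gene pairs within 2%, so whole reads were not recovered. The letters of the 2 NF-kB motifs are described in words.

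All members are named. From each list, called genes with the largest change are named, at most 4 per comparison, and other genes were named after their values were seen to complete a small list. For each tested member the 3 most alike genes are given. The members and lists were chosen with earlier results of these data known. Positions are from GENCODE M21 and promoter sequences from RefSeq. Figures were drawn with matplotlib 3.10.9 in Python 3.11.15. Alternatives covered pseudocount, filter, scaling, variance prior, replicate block, the libraries fitted and each library left out.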

Additional observations from a re-analysis of the deposited data

How the results depend on the processing

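The number of members called stayed within 1.5 times of the reported one under every alternative run, and of 284 alternative values of the 13 called member differences 282 stayed called in the same direction. The exceptions were both Pf4 in the knockout, given above. None of the 560 values of the 27 uncalled member differences was called, but 11 changed sign. These were Ppbp for LPS in wild type with a pseudocount of 0.1 FPKM (-0.069), Cxcl5 without the erythroid-rich libraries (-0.19 under LPS and -0.031 for the interaction, an alternative chosen after seeing the data), and, with 1 library left out, Cxcl1 under PBS (-0.54 to 0.32), Pf4 under PBS (-0.26 to 0.082), Cxcl1 under LPS (-0.031 to 0.49) and Cxcl1 in the interaction (-0.15 to 0.71). Among the exact permutation tests, the Cxcr1 genotype difference ranged from -0.084 to 0.20 and the Cxcl12 LPS difference from -0.61 to -0.18 with 1 library left out. Without the erythroid-rich libraries the LPS differences of Cxcl12 (-0.44) and Cxcr1 (-0.86) were no longer called, with fewer relabellings.

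The counts over all genes between the genotypes were less stable, and the cause was not tested. Under PBS the 11 calls became 4 with a minimum of 5 FPKM, 7 with median-of-ratios scaling, 3 with the replicate block, 0 with the 6 PBS libraries only, 0 without the erythroid-rich libraries and 0 to 30 with 1 library left out. Under LPS the 0 calls became 2 without the filter and 0 to 29 with 1 library left out. The 4 interaction calls became 2 with a pseudocount of 0.5 FPKM, 1 without the filter, 1 with a minimum of 5 FPKM, 7 and 8 with median-of-ratios and upper-quartile scaling, 7 without trend, 0 with the replicate block, 0 without the erythroid-rich libraries and 0 to 48 with 1 library left out. Same-numbered libraries did not deviate together (5 of 18 pairs with a correlation over 0.1, median 0.01), so the numbers were not taken as pairing, and the block changed no call of a member.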
